A study of Homo sapiens with 10 samples.

Results

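The 10 MAP kinase phosphatases of the dual-specificity (DUSP) family were followed in H9 cells, an established human embryonic stem cell (hESC) line, with and without overexpression of DAZL, a germ cell RNA-binding protein. The members were taken by gene name from the table deposited by the authors, and they make up 10 of 64940 genes in it. The family was chosen by the measured rise of DUSP2 in the cells overexpressing DAZL (oeDAZL), so the values of DUSP2 are given as a description without a test. The other 9 members entered by name, with earlier results of these data known. The study differentiated hESCs toward human primordial germ cell-like cells (hPGCLCs) with BMP4 and BMP8a, and introduced DAZL with a lentivirus. The 2 oeDAZL libraries carry the hPGCLC label and the genotype and treatment oeDAZL. The 2 control libraries are labelled wt and described as spontaneously differentiated (SD) cells, whereas the design text of the series calls them WT PGCLCs. The methods of the study describe BMP treatment, transduction and flow cytometry for overexpression experiments in general. They name a control GFP virus for the miRNA libraries and for the proliferation, cell cycle and teratoma assays. The legend of the study's RNA sequencing figure calls both groups hPGCLCs. The sources thus differ on the control cells, and if these were spontaneously differentiated, an effect of DAZL and one of the culture cannot be told apart. Nothing says that the replicates came from separate cultures, so P-values measure only the spread between these libraries, which may be technical.

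MAP kinase phosphatases switch MAP kinases off by removing phosphate from both the threonine and the tyrosine of the activation loop. They are usually sorted into an inducible nuclear group (DUSP1, DUSP2, DUSP4 and DUSP5), a cytoplasmic group that prefers ERK (DUSP6, DUSP7 and DUSP9) and a group that prefers the stress kinases JNK and p38 (DUSP8, DUSP10 and DUSP16). Several of them are transcribed in response to the kinases they inactivate, and DUSP6 is widely used as a readout of FGF-ERK signalling in pluripotent and early embryonic cells.

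Values are TPM (transcript abundance relative to all transcripts of a library), which are scaled by transcript length, so that levels of different genes in a library can be set side by side. The number of reads behind a value cannot be recovered from this unit, so depth is unknown and precision rests on the spread between 2 libraries per group. In these bulk libraries, fewer cells of a type and less RNA per cell cannot be told apart. DAZL itself had 0 and 0.0333 TPM in control against 102 and 101 TPM in oeDAZL. Of 9 markers of primordial germ cells, 7 had a mean of at least 1 TPM, and the summed level of the list ranged from 104 to 113 TPM in control and from 116 to 117 TPM in oeDAZL. DDX4 was listed at 0 in all 4 libraries and NANOS3 lay between 0.732 and 1.66 TPM, whereas 8 markers of amnion and trophoblast summed to between 2234 and 2495 TPM. Of the latter sum, HAND1, which is also counted among the mesoderm markers, supplied 958 to 1250 TPM and KRT7 567 to 675 TPM. The fitted difference was above 0 for 4 of these 8 markers and below 0 for 4. TFAP2C and PDPN, which other tissues also express, made up most of the germ cell sum, and the more restricted NANOS3 and DDX4 were low or at 0. PDPN was at 32.9 and 49.7 TPM in control and at 58.5 and 52.5 TPM in oeDAZL. It was the 1 germ cell marker with a fitted difference above 0. The other 6 tested lay below 0, and the median log2 difference of the list was −0.12, so the higher sum is not a rise of the list. Other cell type markers differed between the groups, but members of a list went both ways. COL3A1, a collagen of mesenchyme, was at 583 and 479 TPM in control and at 224 and 220 TPM in oeDAZL (adjusted P of 0.0344 in limma). Of 8 tested markers of mesoderm and mesenchyme, 5 had a fitted difference below 0 and 3 above. HAND1 was among the higher, at 958 and 1042 TPM in control and at 1250 and 1247 TPM in oeDAZL. POU5F1, a pluripotency factor, was at 13.6 and 10.6 TPM in control and at 22.4 and 20.4 TPM in oeDAZL (adjusted P of 0.0896 in limma). Of 4 tested pluripotency markers, 2 were above 0 and 2 below. SOX2 was among the lower, at 5.16 and 2.57 TPM in control and at 2.16 and 2.04 TPM in oeDAZL. The part of these markers in the differences of the phosphatases was not tested. DUSP2 is best known from activated leukocytes. Of 10 markers of blood and T cells, only RUNX1, which other tissues also express, had a mean of at least 1 TPM. Their summed level ranged from 35.1 to 35.8 TPM in control and from 33.9 to 35.2 TPM in oeDAZL, CD3E, HBG1 and HBZ were at 0 throughout, and PTPRC did not exceed 0.0617 TPM.

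Because the study concerns microRNAs (miRNAs), the transcript ends of the phosphatases were searched for seed matches to 5 miRNAs that it examined. Their mature sequences, taken from RefSeq (GRCh38.p14), are printed with the seed, bases 2 to 8, in capitals. miR-10b-5p was not searched.
let-7a-5p: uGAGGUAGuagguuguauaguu
miR-21-5p: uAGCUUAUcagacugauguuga
miR-22-3p: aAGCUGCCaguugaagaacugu
miR-125b-5p: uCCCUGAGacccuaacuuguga
miR-199a-3p: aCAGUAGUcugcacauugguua

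The longest annotated 3′UTR of each of the 10 phosphatase genes in GENCODE 44 (hg38) held 12 matches in all, spread over 6 genes, and 3 of them were 8mers, in which the seed match is followed by A. DUSP1, DUSP4, DUSP6 and DUSP9 had no match. Among 19585 genes with a 3′UTR, a match to let-7a-5p of at least 7 bases was found in 12.3%, to miR-21-5p in 9.74%, to miR-22-3p in 18.1% and to miR-125b-5p in 17.5%, and 1960 of these genes matched miR-199a-3p. Of the 10 phosphatases, 2 matched let-7a-5p (DUSP2 and DUSP16), 2 miR-21-5p (DUSP5 and DUSP8), 3 miR-22-3p (DUSP7, DUSP10 and DUSP16), 2 miR-125b-5p (DUSP5 and DUSP7) and 1 miR-199a-3p (DUSP5). These matches are letters in a sequence, not measured sites of binding.

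The matches of the members described most closely are shown 5′ to 3′ on the transcript strand, with the match in capitals. That of DUSP2 lies at chr2:96143710-96143716 on the reverse strand, 107 bases into a 3′UTR of 654 bases, and that of DUSP16 at chr12:12475967-12475973, also reverse. The first DUSP10 match lies at chr1:221701907-221701913 and the second at chr1:221701693-221701699, both reverse. The 8mer of DUSP8 lies at chr11:1554861-1554868 and that of DUSP7 for miR-22-3p at chr3:52053459-52053466, both reverse. DUSP7 has 2 annotated transcripts, and its matches are those of the transcript with the longer 3′UTR. The end of its other transcript was not searched.
DUSP2, let-7a-5p: cagggctgCTACCTCctcaga
DUSP16, let-7a-5p: taacgagtCTACCTCcctctt
DUSP10, miR-22-3p, first: aagatcagGGCAGCTtaagtg
DUSP10, miR-22-3p, second: ttagagctGGCAGCTgaatga
DUSP8, miR-21-5p: ccaagaaaATAAGCTAtcgttg
DUSP7, miR-22-3p: cccaaacaGGCAGCTAttgaaa

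DUSP1 is a known target of CREB, and the promoters were searched on both strands for the CRE (TGACGTCA), its core (TGACG), the E-box (CACGTG), the AP-1 motif (TGANTCA), an ETS motif (CCGGAAGT) and the CArG box. Every CRE also counts as a core. RefSeq windows of 250 bases before to 50 bases after an annotated start were matched for 8 of the members, DUSP1, DUSP2, DUSP6, DUSP7, DUSP8, DUSP9, DUSP10 and DUSP16. These were 10 windows, since DUSP9 and DUSP10 each have a second start that lies inside the gene. The CRE was present in 2 of these 10 windows, those of DUSP1 and DUSP8, and in 1.85% of 35116 windows of the same length. The E-box was present in 2 of the 10, those of DUSP1 and DUSP2, and in 7.26% of all windows. The windows of DUSP1, DUSP2 and DUSP8 were 73.3%, 75.0% and 78.3% GC, against a median of 58.7% over all windows. Both motifs contain CG, so the shares of all windows are not a like background. DUSP1 prompted the search for the CRE, so its match is not an independent observation. The core was present in 3 of the 10 (DUSP1, DUSP8 and the internal start of DUSP10) and in 24.6% of all windows. The AP-1 motif, the ETS motif and the CArG box were in 0 of the 10, and in 7.71%, 4.14% and 1.29% of all windows. The E-box of DUSP1 begins inside a reverse copy of the core, so these letters are shared. The motifs are in capitals below, read on the strand of the gene. All 3 genes lie on the reverse strand, and the windows are chr2:96145539-96145562 for DUSP2, chr5:172771289-172771312 and chr5:172771304-172771329 for DUSP1, and chr11:1572373-1572398 and chr11:1572329-1572354 for DUSP8.
DUSP2, E-box: actgcgcccCACGTGaggggcggg
DUSP1, E-box: ccgccccgtCACGTGatcaccatt
DUSP1, CRE: cagggcgggTGACGTCAccgccccgt
DUSP8, CRE, distal: gggctccgcTGACGTCAcctgccccc
DUSP8, CRE, proximal: ggctgcaggTGACGTCAggggctttt

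All 10 phosphatases were transcribed above a mean of 1 TPM over the 4 libraries and were therefore tested. Their summed level was 79.0 and 90.3 TPM in the control libraries and 105 and 97.6 TPM in the oeDAZL libraries. Without DUSP2, which was chosen for its rise, it was 77.7 and 87.6 TPM in control and 97.7 and 90.7 TPM in oeDAZL. The inducible nuclear group supplied 41.2% and 44.8% of the sum of all 10 in control and 46.5% and 46.6% in oeDAZL. DUSP2 alone made up 1.71% and 3.09% of that sum in control and 6.94% and 7.13% in oeDAZL. The shares of the classes therefore include the rise it was chosen for. The cytoplasmic ERK group supplied 28.1% and 25.9% in control and 24.4% and 23.9% in oeDAZL, and the JNK and p38 group stayed between 29.1% and 30.7% in the 4 libraries. With 2 libraries against 2, an exact permutation test of such a value cannot give a P-value under 0.33, so these sums were not tested.

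DUSP16 and DUSP1 were the most abundant members, in one order or the other, in every library. Their ranges over the 4 libraries overlapped, as did those of the next pair, DUSP5 and DUSP6. DUSP7 ranked below these 4 genes and above DUSP10 in each library. DUSP9 had the lowest level of the family in all 4 libraries, at 1.22 and 1.12 TPM in control and at 0.989 and 0.900 TPM in oeDAZL. DUSP2 changed its place in this order. It ranked below DUSP4 in both control libraries, near DUSP8, and above DUSP4 in both oeDAZL libraries.

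**Figure D1:**
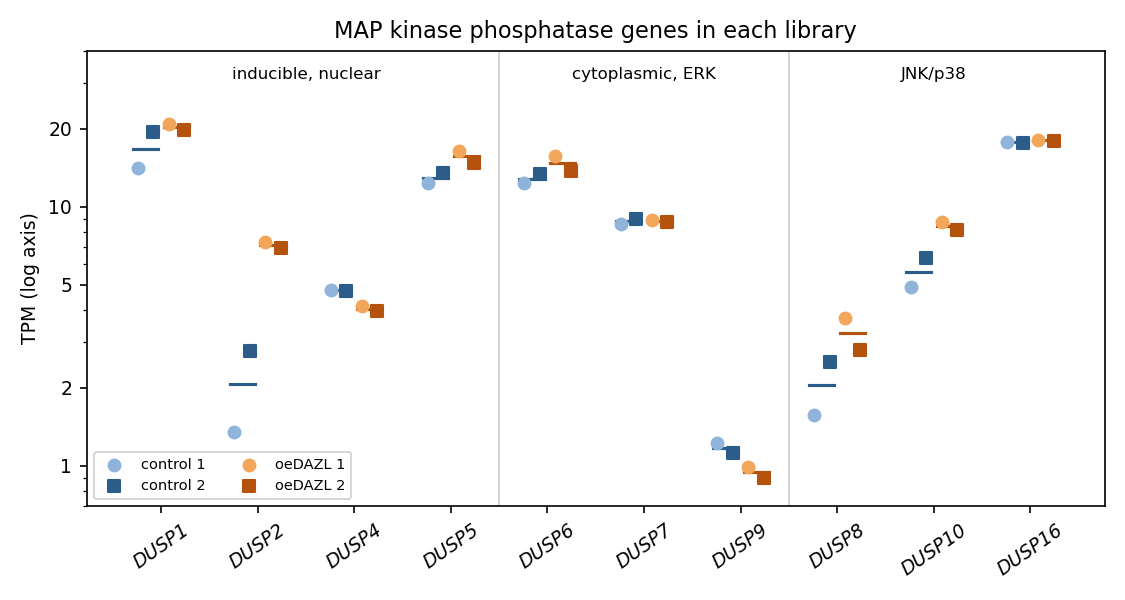
TPM on a log axis for the 10 MAP kinase phosphatase genes in each of the 4 libraries, with circles for replicate 1, squares for replicate 2 and short lines for group means, grouped by class. DUSP2 shows the widest gap between control (1.35 and 2.79 TPM) and oeDAZL (7.29 and 6.96 TPM), and control 1 lies below control 2 for DUSP1, DUSP2, DUSP8 and DUSP10.

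DUSP2 (ENSG00000158050.5), a nuclear phosphatase of ERK and p38, occupies chr2:96143169-96145440 (hg38, reverse strand), where no other gene of GENCODE 44 overlaps it. Control had 1.35 and 2.79 TPM of it and oeDAZL had 7.29 and 6.96 TPM. Both oeDAZL libraries were high and close to each other, whereas the control libraries differed from each other by 2.06-fold. The group means were 2.07 ± 1.02 TPM (SD, n = 2) in control and 7.13 ± 0.235 TPM (SD, n = 2) in oeDAZL, a ratio of 3.44. Set against control 1 alone, the oeDAZL mean was 5.27-fold higher, and against control 2 alone 2.56-fold higher. On the log2(TPM + 1) scale the difference was 1.44. It came to 1.10 when control 1 was left out and to 1.79 when control 2 was. DUSP2 made up 4.15% and 6.89% of the TPM of the inducible nuclear group in control and 14.9% and 15.3% in oeDAZL.

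The other inducible nuclear members moved less. DUSP1, which acts on JNK and p38 as well as ERK and is induced within minutes by growth factors and stress, was at 14.1 and 19.4 TPM in control and at 20.9 and 19.8 TPM in oeDAZL. The groups did not overlap, but control 2 lay just below the oeDAZL libraries. The log2 difference was 0.28 (standard error 0.15), with an adjusted P of 0.352 in limma, and it was 0.06 without control replicate 1 and 0.50 without control replicate 2. DUSP5, a nuclear phosphatase selective for ERK, was at 12.3 and 13.5 TPM in control and at 16.5 and 14.8 TPM in oeDAZL. Its log2 difference of 0.26 (standard error 0.11) had an adjusted P of 0.260 in limma. DUSP4, a close relative of DUSP1, was at 4.79 and 4.72 TPM in control and at 4.13 and 3.97 TPM in oeDAZL. It was thus the nuclear member with its oeDAZL libraries below both control libraries, with a log2 difference of −0.19 (standard error 0.15) and an adjusted P of 0.510 in limma.

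Of the cytoplasmic ERK phosphatases, none passed an unadjusted P-value of 0.05. DUSP6, the feedback inhibitor of FGF-ERK signalling, was at 12.4 and 13.3 TPM in control and at 15.7 and 13.7 TPM in oeDAZL. The highest control and the lowest oeDAZL library differed by little, and the log2 difference was 0.18 (standard error 0.11, adjusted P of 0.418 in limma). DUSP7 was at 8.61 and 8.95 TPM in control and at 8.90 and 8.70 TPM in oeDAZL, so that both oeDAZL values lay between the control values. Its log2 difference was 0.0029, with a 95% interval from −0.28 to 0.28 in limma. DUSP9, known as a brake on ERK in mouse embryonic stem cells, was lower in both oeDAZL libraries, with a log2 difference of −0.16 (standard error 0.24, adjusted P of 0.739 in limma). At its level near 1 TPM, the interval from −0.73 to 0.41 leaves room for changes in either direction.

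The phosphatases of JNK and p38 held the second largest difference of the family. DUSP10 (ENSG00000143507.18), found at chr1:221701424-221742089 on the reverse strand, was at 4.89 and 6.34 TPM in control and at 8.71 and 8.13 TPM in oeDAZL. The groups did not overlap, with control 1 the lowest library. Its log2 difference of 0.52 (standard error 0.16) had an unadjusted P of 0.0159 and an adjusted P of 0.167 in limma, so it did not pass the adjustment over 16687 genes. The unadjusted P in limma was 0.0524 without control replicate 1 and 0.0868 without oeDAZL replicate 1. DUSP8 was at 1.57 and 2.52 TPM in control and at 3.74 and 2.80 TPM in oeDAZL, with a log2 difference of 0.50 (standard error 0.24) and an adjusted P of 0.305 in limma. The gap between its 2 oeDAZL libraries was larger than that between control 2 and the lower oeDAZL library. Only uniquely mapped reads were kept, so reads that fit both DUSP8 and a pseudogene would be left out, and the value of DUSP8 is uncertain. Its pseudogene DUSP8P5 was at 4.91 and 5.90 TPM in control and at 3.29 and 4.41 TPM in oeDAZL. The same may hold for DUSP5, whose pseudogene DUSP5P1 was at 1.04 and 1.02 TPM in control and at 0.887 and 1.21 TPM in oeDAZL. DUSP16 was the steadiest member, at 17.8 and 17.6 TPM in control and at 18.2 and 17.9 TPM in oeDAZL. Its log2 difference was 0.02, with a 95% interval from −0.19 to 0.24 in limma.

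**Figure D2:**
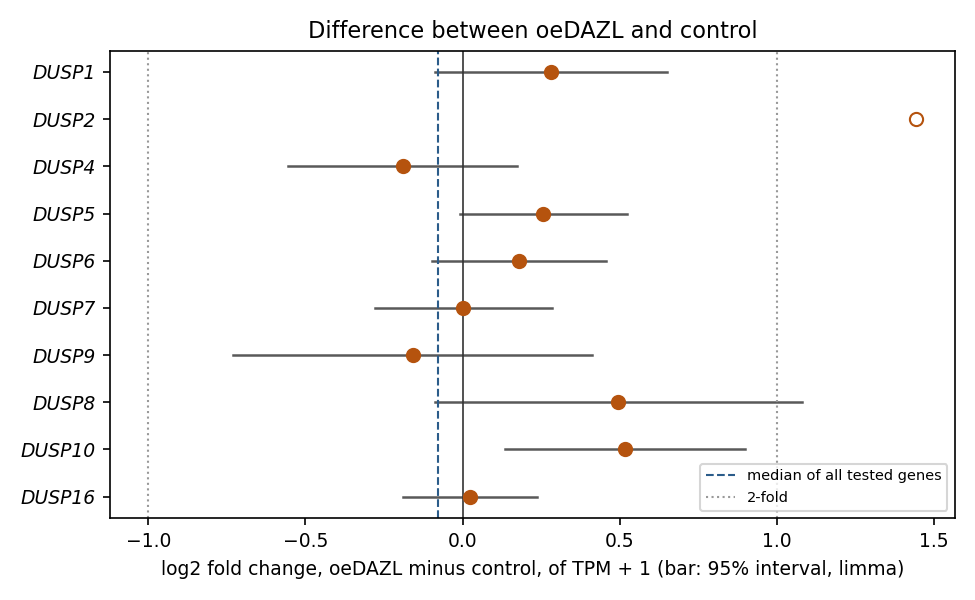
Log2 fold change (oeDAZL minus control) of TPM + 1 for each phosphatase, with 95% intervals from limma; DUSP2 is an open circle without an interval because it was chosen for its rise. The interval of DUSP10 (difference 0.52) lies above 0, those of the other 8 tested members include 0, the dashed line marks the median of all tested genes at −0.08, and dotted lines mark 2-fold.

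A gene was called when it passed both a 2-fold difference and an unadjusted P of 0.05 in limma, the cut-offs that the study set for DESeq2 on counts. DUSP2 was the 1 member past these thresholds, which is the property it was chosen for, and 0 of the other 9 members were called. Over all 16687 tested genes 0.689% were called, and 0.126% were called as higher in oeDAZL. At an unadjusted P-value of at most 0.05, whatever the fold change, DUSP10 was the 1 member of these 9, against 20.2% of all tested genes. With the adjusted P-value under 0.05 in limma, 0 of the 10 members passed, against 0.0599% of all genes. These counts over all genes depended on single libraries. The 21 higher and 94 lower calls became 35 and 85 without control replicate 1, 87 and 235 without control replicate 2, 44 and 131 without oeDAZL replicate 1, and 45 and 187 without oeDAZL replicate 2. The 10 genes with an adjusted P under 0.05 in limma became 2 without control replicate 1 and 673 without control replicate 2. With quantile normalization 41 genes were called higher and 52 lower.

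The median log2 difference was 0.18 for the 9 members other than DUSP2 and 0.22 with DUSP2, which was chosen for its rise, whereas that of all tested genes was −0.08. Without control replicate 1 the median of the 10 members was 0.10. The fitted difference was above 0 for 7 of these 9 members, and for 8 of 10 with DUSP2, against 34.7% of all tested genes. Of the 10, 8 were above 0 with median-of-ratios scaling, quantile normalization and TPM rescaled without mitochondrial genes, and 7 without control replicate 1 and without oeDAZL replicate 1. The 34.7% belongs to the fit reported, whose median over all tested genes lies below 0. That median was −0.0026 with median-of-ratios scaling and 0.0061 with quantile normalization, so 34.7% is not the share to set beside those 2 settings.

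For 7 members the lower oeDAZL library still exceeded the higher control library, against 16.0% of all tested genes. The reverse held for DUSP4 and DUSP9, against 38.4%. The groups of the remaining member, DUSP7, overlapped, and over all genes 54.4% did not overlap. For DUSP16 the nearest libraries were at 17.8 TPM in control and 17.9 TPM in oeDAZL, so the separation is not a sign of a difference in level. Without DUSP2, which was chosen for its rise, 6 members lay higher and 2 lower.

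For most members the control libraries differed from each other in the direction of the groups. Control 2 lay between control 1 and both oeDAZL libraries for 8 of the 10 members, all but DUSP7 and DUSP16, against 36.9% of all tested genes. These 8 include DUSP2, which was chosen for its rise. The order is possible only where the groups do not overlap, as for all members but DUSP7 and for 54.4% of all tested genes. The 2 shares are therefore not a like comparison. For DUSP4 the control libraries differed by only −0.02 on the log2 scale. The difference between control 2 and control 1 was 0.69 for DUSP2 on the log2 scale, 0.46 for DUSP8, 0.43 for DUSP1 and 0.32 for DUSP10, whereas the median size of this difference over all tested genes was 0.14. Between the oeDAZL libraries it was −0.06 for DUSP2, −0.08 for DUSP1 and −0.09 for DUSP10, with a median size over all genes of 0.10. The differences of DUSP1, DUSP2, DUSP8 and DUSP10 therefore rest more on control 1 than on control 2. What set the control libraries apart was not tested.

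**Figure D3:**
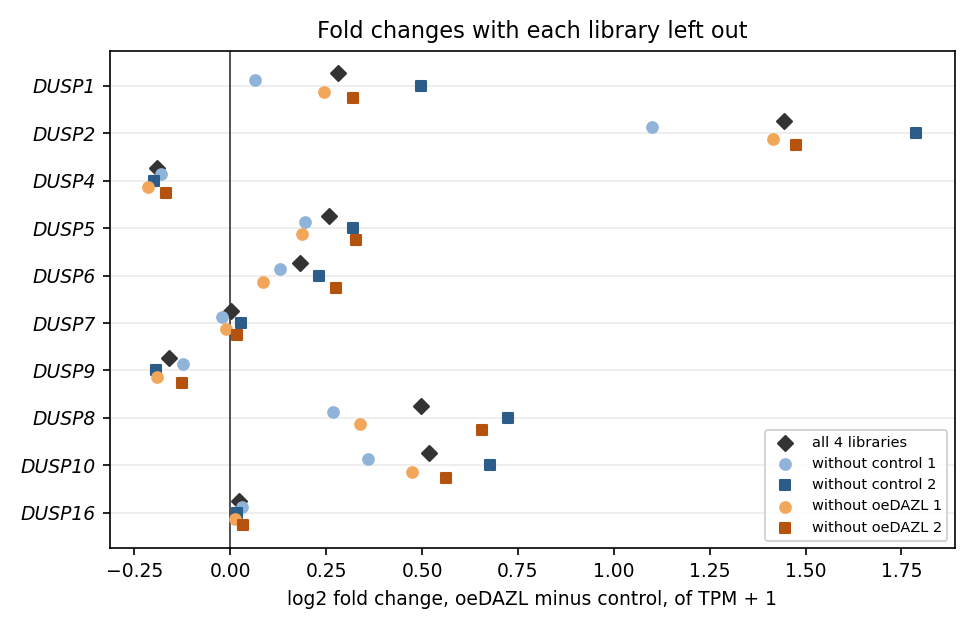
Log2 fold change of TPM + 1 (oeDAZL minus control) for each phosphatase with all 4 libraries (diamond) and with each library left out. Leaving out control 1 brought DUSP1 from 0.28 to 0.06 and DUSP2 from 1.44 to 1.10, whereas DUSP16 stayed between 0.01 and 0.03.

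The genes around the phosphatases in the MAP kinase pathway were described from lists that hold its kinases, its feedback inhibitors and genes that ERK induces or activates. None of the genes in these lists was called at 2-fold, and 0 passed an adjusted P-value of 0.05 in limma. Without control replicate 2, 1 MAP kinase (MAPK10) and 1 feedback inhibitor (SPRY4) were called. Over all tested genes, 5.02% were higher and 15.2% lower at an unadjusted P-value of at most 0.05, and the counts below are read against these shares. Of the 10 MAP kinases, the family that holds the substrates of the phosphatases, 2 had an unadjusted P-value of at most 0.05, both lower, a share close to that of all genes. MAPK12, a p38 kinase, was at 11.3 and 7.83 TPM in control and at 6.25 and 5.87 TPM in oeDAZL (log2 difference −0.56, adjusted P of 0.184 in limma). MAPK3, which encodes ERK1, was at 59.6 and 47.1 TPM in control and at 43.6 and 42.9 TPM in oeDAZL, with a difference of −0.29 and an adjusted P of 0.238 in limma. For both kinases control 1 was the highest library. MAPK14, the main p38 kinase and the most abundant of the list, differed by 0.11, with an adjusted P of 0.397 in limma. The median difference of the list was −0.05.

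Among the 7 MAP kinase kinases, 1 was higher and 2 were lower at an unadjusted P-value of at most 0.05, against 5.02% and 15.2% of all tested genes. MAP2K3, an activator of p38, was at 32.3 and 32.6 TPM in control and at 42.4 and 40.8 TPM in oeDAZL, and its difference of 0.35 (standard error 0.07) had an adjusted P of 0.0989 in limma. The gap between its groups was wide against the spread within them. MAP2K5 and MAP2K7, which act on ERK5 and JNK, differed by −0.30 and −0.27. MAP2K2 and MAP2K1, the kinases of ERK and the most abundant of the list, differed by −0.09 and 0.20, neither with an unadjusted P-value under 0.05. Of the 6 genes of RAS and RAF, NRAS was at 95.7 and 104 TPM in control and at 123 and 126 TPM in oeDAZL, with a difference of 0.32 and an adjusted P of 0.0984 in limma. Its groups were separated by more than the spread within either of them.

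The other feedback inhibitors of ERK, the Sprouty and Spred proteins and IL17RD, had 7 tested genes, and SPRY4 was the 1 gene with an unadjusted P-value of at most 0.05. SPRY4 was at 14.8 and 31.2 TPM in control and at 41.0 and 36.8 TPM in oeDAZL, with a log2 difference of 0.82 (standard error 0.30) and an adjusted P of 0.216 in limma. The control libraries lay farther apart than control 2 lay from either oeDAZL library. SPRY2, the most abundant of the list, differed by −0.18, and the median of the list was −0.03.

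A further list held transcription factors and early genes that ERK induces or activates. Of its 15 tested genes, 6 were higher and 0 lower at an unadjusted P-value of at most 0.05 in limma, against 5.02% and 15.2% of all tested genes. The median difference of this list was 0.22. ETV4, an ETS factor downstream of FGF, was at 15.9 and 18.0 TPM in control and at 27.5 and 24.1 TPM in oeDAZL, with a difference of 0.58 (standard error 0.11) and an adjusted P of 0.0933 in limma. FOS was at 56.9 and 47.6 TPM in control and at 65.9 and 67.5 TPM in oeDAZL, and EGR1 at 19.1 and 21.2 TPM in control and at 26.4 and 24.9 TPM in oeDAZL. Their differences were 0.35 and 0.34, and those of IER2 and MYC were 0.30 and 0.26. ELK1, also among the 6, is a factor that ERK activates rather than induces, and it differed by 0.25. JUN, the most abundant of the list, was at 133 and 109 TPM in control and at 98.2 and 106 TPM in oeDAZL, a difference of −0.24 with an unadjusted P of 0.0559 in limma. It was 1 of 4 genes of the list with a fitted difference below 0.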

How the data were processed

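RNA of 2 control and 2 oeDAZL libraries was sequenced by the authors, who deposited one table of TPM per gene with each replicate in its own column. The study's methods state that reads were trimmed with TrimGalore, mapped to hg38 with HISAT2, kept where they mapped uniquely and quantified with StringTie. The annotation release, the strandedness of the libraries and the depth are not given in the sources used here. Without strand, reads from the lncRNA genes antisense to DUSP1, DUSP6, DUSP8 and DUSP16 cannot be separated from those of the phosphatases. The miRNA libraries of the series (shLacZ, shDAZL_4 and shDAZL_6) were not analysed here.

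The 45 entries for chromosome Y copies of pseudoautosomal genes and 18 repeated entries were left out. DUSP8 and DUSP16 have further entries, all at 0. Genes with a mean of at least 1 TPM (16687) were fitted on log2(TPM + 1) with limma 3.58.1 in R 4.3.3, with eBayes and a trend on mean expression and no covariates. Adjusted P-values are Benjamini-Hochberg values over all tested genes. Fold changes on this scale understate those of genes with low TPM. The members, lists and tests were chosen with earlier results of these data known. Genes named from the other lists were those with an unadjusted P-value of at most 0.05, up to 5 with the largest difference, and the 2 with the highest mean TPM. ELK1 was named in addition. Some genes that this rule names are not reported here. Seed matches and loci came from GENCODE 44, and mature miRNAs and promoters from RefSeq.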

Additional observations from a re-analysis of the deposited data

How the results depend on the processing

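The number of phosphatase genes called, 1, was 0 when genes needed a mean of 5 TPM, which DUSP2 does not reach, and 0 when the adjusted P in limma had to be under 0.05. That count is DUSP2, which was chosen for its rise, so its calls under other settings are no support for it. Over all genes, 55 higher and 267 lower genes were called with a pseudocount of 0.1, and 6 and 23 with a mean of at least 5 TPM. The median log2 difference of the phosphatases with DUSP2 included, 0.22, was 0.32 with quantile normalization. That of all tested genes moved as well, from −0.08 to 0.0061, so most of this change was shared with all genes. With single libraries left out, the median of the phosphatases ranged from 0.10 without control replicate 1 to 0.30 without oeDAZL replicate 2. DUSP2 was at 1.82 with a pseudocount of 0.1. Of the atypical dual-specificity phosphatases, 0 were called in the fit reported, and 1 with a pseudocount of 0.1 and without oeDAZL replicate 2, in both cases DUSP15. DUSP5, at 0.0559 in the fit reported, had an unadjusted P in limma of 0.0207 after quantile normalization, 0.0252 after median-of-ratios scaling, 0.0469 once mitochondrial genes were taken out and 0.0456 without control replicate 2. DUSP8 had an unadjusted P in limma of 0.0400 with quantile normalization and 0.0336 without control replicate 2, and DUSP1 had 0.00491 in limma without control replicate 2. When a library was left out, the lone library of its group was assumed to vary like the other group.

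With the replicate number as a block, 1 phosphatase was called and the median stayed at 0.22, and 26 higher and 99 lower genes were called over all genes, against 21 and 94 without the block. The numbers were not shown to pair the libraries: the differences between replicates 1 and 2 had a correlation across genes of −0.104 between the groups. With crossed numbers, chosen after seeing the data, 28 genes were called higher and 107 lower, 1089 had an adjusted P under 0.05 in limma, against 4 with the numbers as labelled and 10 without a block, and 5 members including DUSP2 had an unadjusted P of at most 0.05, against 2. The unknown depth limits DUSP2, DUSP8 and DUSP9 most, whose control libraries lay between 1 and 3 TPM.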

Other observations

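The atypical dual-specificity phosphatases lack the kinase-binding domain of the MAP kinase phosphatases and act on a mixed set of substrates. Of the 18 in the table, 12 were tested, 1 was higher and 1 lower at an unadjusted P-value of at most 0.05 in limma, against 5.02% and 15.2% of all tested genes, and their median log2 difference was −0.16, against −0.08 for all tested genes. DUSP15 was at 5.07 and 4.52 TPM in control and at 1.81 and 2.98 TPM in oeDAZL, with a difference of −0.79 (standard error 0.22) and an adjusted P of 0.151 in limma. Its oeDAZL libraries were apart from each other, but both lay well below control. DUSP3, the most abundant of the list, was at 65.8 and 62.1 TPM in control and at 72.1 and 72.0 TPM in oeDAZL, a difference of 0.17 with an adjusted P of 0.217 in limma. DUSP22 differed by −0.16, with an adjusted P of 0.305 in limma. DUSP19, DUSP23 and DUSP26 were listed at 0 in all 4 libraries, which with no read depth says only how they are listed.

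Of the tyrosine phosphatases that share a kinase-binding motif with this family, PTPN5 was tested and differed by −0.17, with an adjusted P of 0.717 in limma. PTPRR and PTPN7 did not reach a mean of 1 TPM, and PTPN7, like DUSP2 known from leukocytes, was at 0.0542 and 0.234 TPM in control and at 0 in both oeDAZL libraries.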
